A study of Sus scrofa with 44 samples.

Results

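PK15, an established cell line from pig kidney, was profiled for N6-methyladenosine (m6A) after each of 2 ways of choosing the RNA, and the peak lists from these preparations are compared here. Members were taken by preparation: all 16492 peaks of the polyA list and all 9659 peaks of the rRNA-depleted list, 26151 of the 70975 peaks in the 8 lists of the series. They come from 8 of its 44 samples. The remaining 36 samples are rRNA-depleted RNA from longissimus dorsi muscle of pig fetuses at 33, 40, 50, 60, 70 and 95 days post coitus, in a study of m6A before birth. In MeRIP-seq, RNA fragments are pulled down with an antibody against m6A and sequenced beside the unselected input, and regions richer in the pulled-down reads are called as peaks.

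The 4 PK15 groups were polyA input, polyA immunoprecipitated, rRNA-depleted input and rRNA-depleted immunoprecipitated RNA, with 2 samples each. The cells were untreated as far as the labels say, and all groups shared the cell line, the Trizol extraction, the DNaseI step and, for the immunoprecipitated samples, the same antibody. The labels do not say whether the samples of a group came from separate cultures. Each preparation has 1 deposited list, so no difference between the lists has a replicate check, and no p-value is given for one. The intervals below are Wilson 95% intervals for shares and order-statistic intervals for medians, and they cover counting error only. How many reads lie behind each list is not given in the sources used here. RNA selection therefore cannot be told apart from read depth or any other difference between the 2 sets of libraries.

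m6A is placed on messenger RNA by a nuclear complex in which METTL3 is the catalytic subunit and METTL14 its partner. It is removed by FTO and ALKBH5 and bound by YTH-domain proteins, which steer the transcript to decay, translation or splicing. The complex prefers DRACH, a run of 5 bases that reads A, G or T, then A or G, then AC, then A, C or T, with GGAC as a favoured core, and m6A is known to be dense in long exons and around stop codons. PolyA selection keeps transcripts by their tail, whereas rRNA depletion removes ribosomal RNA and keeps the rest, tailed or not.

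The following windows show the DRACH match nearest the middle of the peaks with the strongest enrichment, in capitals, with up to 12 flanking bases on each side. All are read 5′ to 3′ on the RNA strand from the RefSeq Sscrofa11.1 genome. The first 5 are the genes whose peak was strongest in both lists, by the lower of the 2 fold enrichments, taken near the middle of the bases that both peaks cover.
BCORL1, chrX:106574300-106574328, plus strand, coding: ccgactgctcctGGACTccgctcagcacc
ADGRA3, chr8:16667390-16667418, minus strand, coding: gccgccatcacaAAACTagaagtaaaggg
IFT88, chr11:1025330-1025358, plus strand, 3′ UTR: tgaaggctccagGGACTgagctgactggc
MAP3K10, chr6:48527575-48527603, plus strand, coding: ggccgcccggctGGACCctgaacgggacc
ZBTB2, chr1:14893180-14893208, plus strand, coding: atgcagcacttgTGACAagagcttctgca

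The next 5 come from the strongest peaks of genes found in the polyA list only.
PPP1CA, chr2:5120251-5120279, plus strand, coding: gaagctcaacctGGACTctatcatcgggc
MMP15, chr6:19911115-19911143, plus strand, coding: cggggcaggcggTGACAgccaggaggacc
ZFYVE28, chr8:1244662-1244690, minus strand, coding: ctgcagctgcctGGACTcccggccgcacc
INKA2, chr4:108662769-108662797, plus strand, coding: cgcccctgcccaGGACAcggctgccagag
MACROH2A1, chr2:137623709-137623737, minus strand, 5′ UTR: agggcacgggccGGACAccttgctgctgc

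For genes found in the rRNA-depleted list only, the 5 strongest peaks gave 2 windows.
HOXC8, chr5:19224289-19224317, plus strand, near the stop codon: aacaacaaggatAAACTgcccggagcccg
PIGN, chr1:159415122-159415150, plus strand, near the stop codon: ctcacaacaaagAAACTcaaactgtgggg

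The peaks of MFN2 (91 bases), PBX3 (91 bases) and RFX3 (120 bases), which complete these 5, held 0 DRACH matches. GGAC was the core of 3 of the 5 shared windows and 4 of the 5 polyA-only windows, and of 0 of the 2 rRNA-depleted windows. A last sequence shows how a peak on mitochondrial RNA looks in the rRNA-depleted list. The peak of ND4L, a subunit of respiratory complex I, ran over the whole gene at chrMT:11069-11365 on the plus strand, with its 5 DRACH matches in capitals and no GGAC among them.
ND4L: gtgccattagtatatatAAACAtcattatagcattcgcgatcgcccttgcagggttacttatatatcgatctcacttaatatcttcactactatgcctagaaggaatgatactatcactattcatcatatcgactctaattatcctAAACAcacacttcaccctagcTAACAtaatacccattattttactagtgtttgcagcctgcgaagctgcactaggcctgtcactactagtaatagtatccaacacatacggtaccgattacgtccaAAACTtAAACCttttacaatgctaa

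The rRNA-depleted list was smaller and lay mostly inside the polyA list. PolyA peaks fell in 8479 genes and rRNA-depleted peaks in 5333. Of the 8865 genes with a peak in either list, 4947 (55.8%) were in both, 3532 (39.8%) in the polyA list only and 386 (4.35%) in the rRNA-depleted list only. The shared genes were 58.3% of the polyA genes (57.3% to 59.4%) and 92.8% of the rRNA-depleted genes (92.0% to 93.4%). A gene without a peak may lack the mark, be little expressed or be thinly covered, and these cannot be told apart here. Peak by peak, 6869 polyA peaks (41.7%, 40.9% to 42.4%) overlapped a peak of the other list by at least 1 base on the same strand, as did 7693 rRNA-depleted peaks (79.6%, 78.8% to 80.4%). Of the 4947 genes in both lists, 311 had no overlapping peak. When the polyA list was cut to the 9659 peaks with the smallest p-values, 63.2% of them were shared, 1664 genes were in the polyA list only and 758 in the rRNA-depleted list only, so the sizes of the list-only groups depend on list length.

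**Figure D1:**
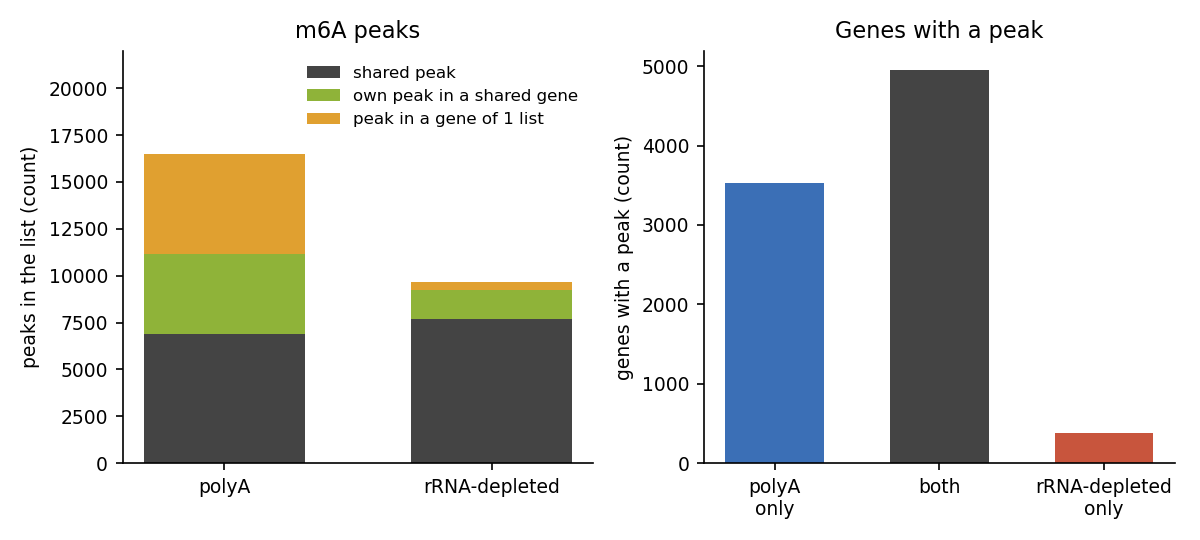
Left, the number of m6A peaks in each PK15 list, stacked by whether the peak overlaps one in the other list, lies apart in a gene that both lists hold, or lies in a gene of 1 list. Right, the number of genes with a peak in the polyA list only, in both lists and in the rRNA-depleted list only. The shared part is 6869 of 16492 polyA peaks and 7693 of 9659 rRNA-depleted peaks.

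Peaks were stronger and longer in the polyA list. The authors' fold enrichment per peak, a ratio of immunoprecipitated to input signal as the caller gave it, had a median of 7.41 in the polyA list and 3.92 in the rRNA-depleted list, with the middle 50% of peaks at 4.21 to 13.8 and 2.79 to 5.76. The highest values were 1530 and 36.8. The median peak covered 269 exonic bases in the polyA list (269 to 270) and 211 in the rRNA-depleted list (210 to 211). The exonic bases covered summed to 5.72 Mb and 2.60 Mb. Each list was called on its own, so a fold in one list and a fold in the other need not be on the same scale.

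The same holds where the lists met. Overlaps formed 8036 pairs, and in 5662 of them each peak met just the other. In these 5662 pairs the polyA fold was higher in 78.7%, with a median log2 ratio of polyA over rRNA-depleted fold of 0.84 (0.81 to 0.87). The folds of a pair followed each other loosely (Spearman rho 0.394 across pairs, which share the genome and the cell line, as a description). The polyA peak was longer in 77.6% of pairs, with medians of 389 and 240 bases, and in 69.7% the rRNA-depleted peak lay wholly inside it. The midpoints were a median of 45 bases apart along the transcript. Elsewhere 1 polyA peak spanned several: 975 polyA peaks overlapped at least 2 rRNA-depleted peaks, and 328 rRNA-depleted peaks overlapped at least 2 polyA peaks.

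The shared peaks named here ranked highest by the lower of their polyA and rRNA-depleted folds. BCORL1, a transcriptional corepressor, had a fold of 43.0 in the polyA list and 28.7 in the rRNA-depleted list. IFT88, part of the transport machinery of cilia, had 35.3 and 24.5. In ADGRA3, an adhesion G protein-coupled receptor, the folds were 24.5 and 24.7, in the kinase gene MAP3K10 24.3 and 23.6, and in the zinc finger gene ZBTB2 22.5 and 23.2. These pairs were picked for a high fold in both lists, which favours folds of like size. The highest fold was 1530 in the polyA list and 36.8 in the rRNA-depleted list. The pairs therefore do not show how the highest polyA folds compare.

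How often a polyA peak was shared followed its p-value far more than its fold. Each list was split into 10 equal groups. From the polyA group with the largest p-values to the group with the smallest, the shared percentage went from 3.45% to 96.8%, going up at every step. Over groups by fold it ranged only from 29.2% to 55.6%, and the group with the highest folds (22.9 and above) was shared in 48.5%. In the rRNA-depleted list the opposite measure told more. The shared percentage went from 38.6% in the lowest group by fold to 95.4% in the highest, and over groups by p-value it ran from 71.1% to 91.6%. The caller's p-value also tracks peak length: polyA peaks had a median of 91 bases in the group with the largest p-values and 598 in the group with the smallest.

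**Figure D2:**
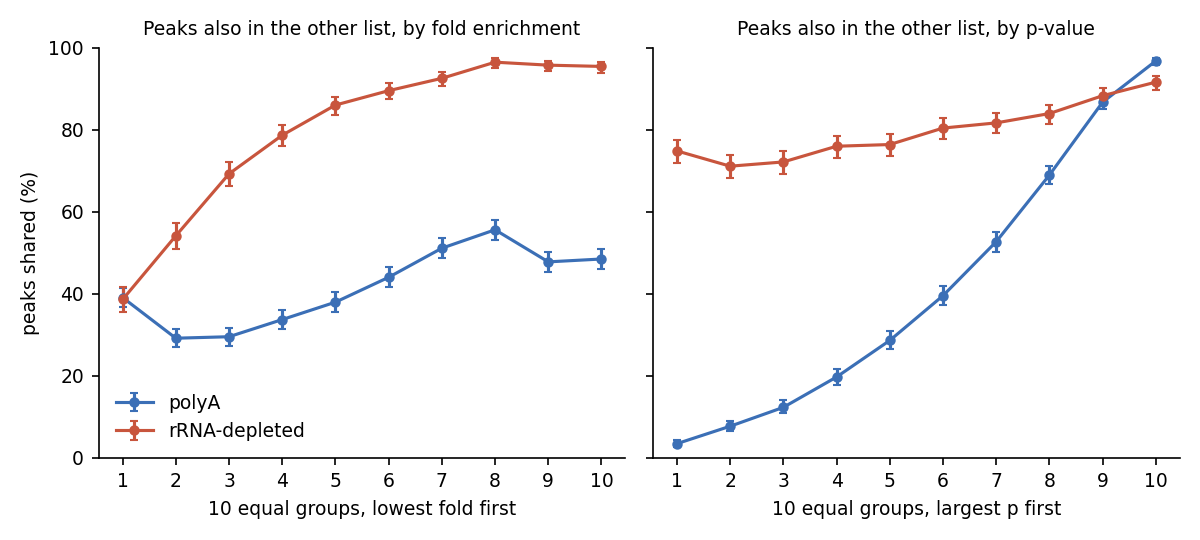
Percentage of peaks (vertical axis) that overlap a peak of the other list, for 10 equal groups of each list (horizontal axis) ordered by fold enrichment on the left and by p-value on the right; bars are Wilson 95% intervals. The polyA line climbs from 3.45% to 96.8% by p-value, and the rRNA-depleted line from 38.6% to 95.4% by fold.

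The strongest genes of the polyA list alone had folds outside the range of the other list. PPP1CA, a catalytic subunit of protein phosphatase 1, had a peak of 211 bases in 2 blocks, with its midpoint in the 5′ UTR and a fold of 404. MMP15, a membrane-bound metalloproteinase, had 265 in its coding sequence. ZFYVE28, a negative regulator of EGF receptor signalling, had 209 over a peak of 1072 bases. INKA2, an inhibitor of the kinase PAK4, had 202, and MACROH2A1, a histone variant, had 172 at its 5′ UTR. The peaks of MMP15 and INKA2 overlapped peaks in all 6 lists of fetal muscle, which were made from rRNA-depleted RNA, and that of PPP1CA in 4. These 3 sites were thus also called in rRNA-depleted RNA of another tissue. The peaks of ZFYVE28 and MACROH2A1 overlapped a peak in 0 of the 6 muscle lists.

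The genes of the rRNA-depleted list alone with the highest folds were weaker. The caller gave their 5 peaks p-values of 1.9e-06 (HOXC8) to 6.8e-05 (MFN2). The median log10 p of that list was -9.27 and its largest p-value 0.0028. The 5 polyA peaks above had caller p-values of 1e-287 (PPP1CA) to 2e-64 (INKA2). HOXC8, a homeobox transcription factor, had a fold of 17.9 near its stop codon in a peak of 150 bases that all 6 muscle lists also held. PIGN, an enzyme of GPI anchor synthesis, had 14, and MFN2, a protein of mitochondrial fusion, had 13.6. The transcription factors PBX3 and RFX3 had 11.9 and 11.7. These 2 folds came from peaks in 5′ UTRs of 91 and 120 bases. The peak of RFX3 overlapped peaks in 2 muscle lists, and those of PIGN, MFN2 and PBX3 in 0.

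In genes that both lists held, peaks found in 1 list lay in other parts of the transcript than shared peaks, and differently in each list. Each peak was placed by its midpoint on RefSeq transcripts of the same genome build, with "near the stop codon" meaning within 200 bases of it along the transcript. In the polyA list 10.4% of peaks were in 5′ UTRs, 40.0% in coding sequence, 22.1% near the stop codon and 16.1% in the rest of the 3′ UTR. In the rRNA-depleted list these were 3.59%, 55.0%, 21.6% and 11.7%. Of the 1723 polyA peaks in 5′ UTRs, 16.9% (15.2% to 18.7%) were shared, against 52.2% (51.0% to 53.4%) of those in coding sequence, 45.4% near the stop codon and 33.9% in 3′ UTRs. The 347 rRNA-depleted peaks in 5′ UTRs were shared in 78.7% (74.1% to 82.7%). The polyA peaks of 5′ UTRs were short (median 180 bases) and rich in G and C (median 66.7%). Their median fold was 7.82, and that of coding peaks 7.53. The p-values, which sharing of polyA peaks followed more than fold, were not compared by position. The part of peak strength in the low sharing of 5′ UTR peaks was not tested.

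In genes that both lists held, the polyA list's own peaks were in 5′ UTRs in 18.6% and in 3′ UTRs in 21.8%, against 4.24% and 13.1% of its shared peaks. The rRNA-depleted list's own peaks in those genes were in coding sequence in 71.4% and near the stop codon in 10.4%, against 51.7% and 23.7% of its shared peaks. Only 20.9% of the former lay in the last exon, compared with 52.3% of the latter. Peaks in genes of 1 list were near the stop codon in 26.6% (polyA) and 23.9% (rRNA-depleted), close to the 24.1% and 23.7% of shared peaks. They were in 5′ UTRs in 11.9% of the polyA list, and in 3′ UTRs in 5.41% of the rRNA-depleted list, against 12.8% of its shared peaks. Whether a shared peak in the same gene had a part in these differences was not tested.

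**Figure D3:**
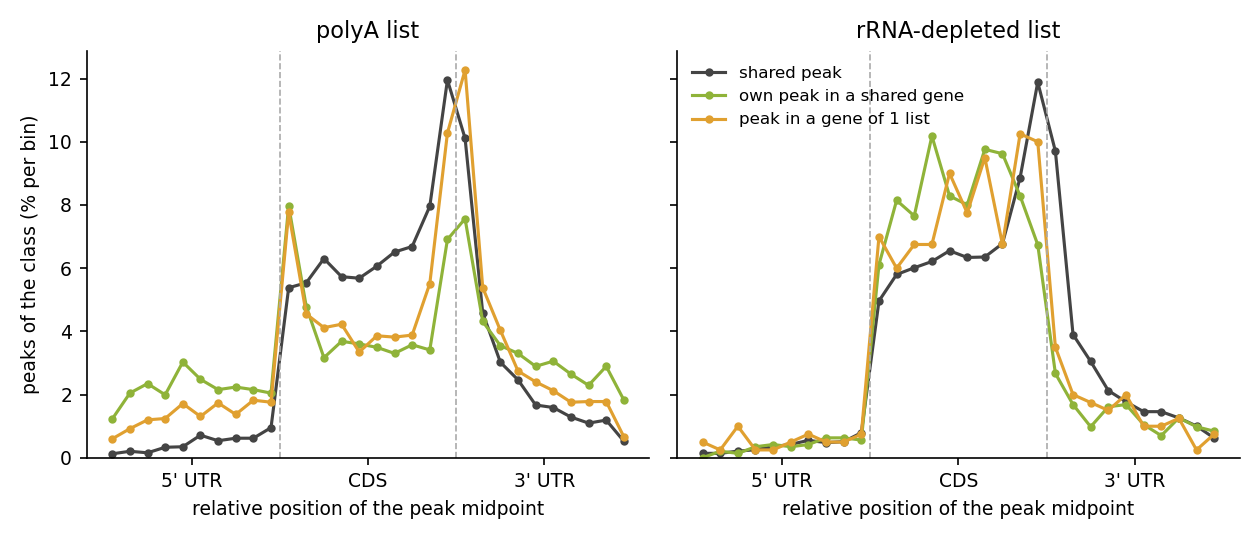
Share of the peaks of each class (vertical axis, percent per bin) by relative position of the peak midpoint along the 5′ UTR, coding sequence and 3′ UTR (horizontal axis, 10 bins for each region), for the polyA list on the left and the rRNA-depleted list on the right. Shared peaks crowd at the end of the coding sequence in both panels. The polyA list's own peaks have a second summit at its start, and those of the rRNA-depleted list spread along it.

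The rRNA-depleted list's own peaks also differed in structure and sequence. A peak with several blocks was taken to span an exon junction. Such peaks made up 21.9% of the shared rRNA-depleted peaks, 49.2% of the list's own peaks in genes of both lists and 55.0% of those in its own genes. The exon that held the midpoint had a median length of 1334, 233 and 190 bases in these 3 classes. In the polyA list, by contrast, several blocks were more frequent among shared peaks (35.1%) than among own peaks in genes of both lists (16.7%) or in its own genes (16.1%). The median lengths of these polyA classes were 419, 181 and 208 bases, and those of the rRNA-depleted classes 240, 151 and 151. A longer peak can cross more junctions, and the part of length in the block shares was not tested.

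GGAC, searched on the RNA strand in the central 100 bases of a peak or in all of a shorter one, was present in 53.6% of shared rRNA-depleted peaks. It was present in 34.4% of the list's own peaks in genes of both lists and in 29.9% of peaks in its own genes. All windows of 100 bases along 1 transcript of each RefSeq coding gene held GGAC in 32.5%. The 3 polyA classes held it in 50.2%, 50.3% and 51.7%, shared or not. The lower share among the rRNA-depleted list's own peaks stood for peaks of 1 block (31.4% in genes of both lists, against 56.0% of shared peaks) and of several blocks (37.5% against 45.0%). DRACH, which covers many more sequences, differed less between the classes: 89.9%, 82.9% and 82.1% in the rRNA-depleted list, 88.6%, 84.2% and 86.5% in the polyA list and 83.2% of all windows. Among rRNA-depleted peaks of several blocks the order turned, with DRACH in 88.2% and 88.4% of the list's own peaks and 87.0% of shared ones. The rRNA-depleted list's own peaks had a median length of 151 bases in both classes and its shared peaks 240, and the part of length in the difference was not tested.

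The list's own peaks were not all absent elsewhere. Of the rRNA-depleted list's own peaks, 62.5% in genes of both lists and 59.9% in its own genes overlapped a peak of at least 1 fetal muscle list, compared with 73.8% of its shared peaks. For the polyA list these were 15.9%, 20.3% and 75.5%. The muscle lists came from rRNA-depleted RNA, as did 1 PK15 list only.

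Peak number per gene leaned to the polyA list, also in each of 5 groups by transcript length. Genes averaged 1.95 peaks in the polyA list and 1.81 in the rRNA-depleted list, and 48.0% and 57.0% of genes had 1 peak. Among the 4947 genes in both, 1984 had more polyA peaks, 2101 as many and 862 more rRNA-depleted peaks. Split into 5 equal groups by the length of the RefSeq transcript, the share of genes in both lists went from 46.1% in the shortest group (up to 1970 bases) to 67.7% in the longest (6199 bases and more). Among genes in both lists, the share with more polyA peaks went from 32.6% in the shortest group to 43.9% in the longest and the share with more rRNA-depleted peaks from 10.7% to 24.3%, so equal numbers became rarer. In the longest group these genes averaged 3.04 polyA and 2.64 rRNA-depleted peaks. Genes in the polyA list only had a median transcript of 3184 bases, genes in both 3944 and genes in the rRNA-depleted list only 2728.

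Genes with a large excess in either list included some with long transcripts. SRRM2, a scaffold of nuclear speckles, had 5 polyA and 12 rRNA-depleted peaks on a transcript of 9345 bases. CENPF, a kinetochore protein, had 8 and 14 on 10201 bases, and the acetyltransferase EP300 had 4 and 9 on 9640 bases. A polyA peak can cover several rRNA-depleted peaks, as counted above. In the other direction, KIF7 (a regulator of Hedgehog signalling in cilia) and BRD10 had 9 polyA peaks and 1 rRNA-depleted peak each, and PCDHGA4, a clustered protocadherin, had 9 and 2. ZFHX2 and MBD5 had 8 and 7 polyA peaks and 0 rRNA-depleted peaks. Their transcripts had 10304 and 27848 bases, that of BRD10 10007, that of KIF7 4744 and that of PCDHGA4 3346. The longest peak of both lists was in PLEC, which encodes the cytoskeletal linker plectin, with 8631 exonic bases in the polyA list and 3537 in the rRNA-depleted list.

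The gene lists were read against all 15622 genes with a symbol, of which 28.4% had a peak in both lists, 19.5% in the polyA list only and 2.11% in the rRNA-depleted list only. For members of the gene lists, a fold is the highest of the gene in that peak list. The 2 folds of a gene therefore need not come from the same site. Of 21 matched writers, erasers and readers of m6A, 15 were in both lists, 3 in the polyA list only, 1 in the rRNA-depleted list only and 2 in neither. The polyA-only genes were METTL3 (1 peak, fold 4.22), METTL14 (3 peaks, highest fold 4.42) and the reader IGF2BP3 (fold 4.80). The RNA-binding protein gene ELAVL1 was the rRNA-depleted one (fold 2.35). WTAP, VIRMA, RBM15, RBM15B, ZC3H13 and CBLL1, the regulatory subunits of the writer, all had peaks in both. ZC3H13 had 6 polyA peaks, all shared, with a highest fold of 103 against 6.90 in the rRNA-depleted list. The nuclear reader YTHDC1 had 119 against 12.9, and the erasers FTO and ALKBH5 had 9.63 and 18.9 against 3.45 and 3.56.

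Chromatin regulators were the most complete group of the lists: 25 of 28 matched genes were in both and 0 in 1 list only. They were also a group with more rRNA-depleted than polyA peaks, 123 against 93, where all genes with a symbol had 8633 against 14627. The histone methyltransferase genes KMT2A and KMT2C had 9 and 7 polyA peaks and 13 and 10 rRNA-depleted peaks. The nuclear receptor corepressor NCOR1 had 3 and 7. The list held EP300 as well, described above.

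Short-lived regulatory transcripts were in both lists in 18 of 24 genes and in the polyA list only in 2 (ATF3 and CDKN1A). MYC, a growth-promoting transcription factor, had 2 peaks in each list, with highest folds of 9.64 and 4.44. FOSL1, an AP-1 subunit, had 51.2 and 9.25. DUSP1, a phosphatase that switches off MAP kinases, had 12.8 and 10.9. In ZFP36, which promotes decay of AU-rich transcripts, the highest rRNA-depleted fold of 8.16 was above the highest polyA fold of 6.79. It had 2 peaks in each list, and 1 of its polyA peaks was shared. In FOS, with 1 peak in each list, 7.50 was above 6.98.

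In the TGF-beta and BMP pathway, 16 of 25 genes were in both lists, 7 in the polyA list only and 0 in the rRNA-depleted list only. Every ligand with a peak was in the polyA list only: TGFB1 (2 peaks, highest fold 6.36), TGFB2 (1 peak, 9.26), BMP2 (2 peaks, 30.6) and BMP4 (1 peak, 8.42), while TGFB3 and BMP7 had no peak. Among receptors, TGFBR1 (4.01) and ACVR2A (15.3) were polyA only, and TGFBR2, TGFBR3, BMPR1A, BMPR2 and ACVR1 were in both. The signal carriers SMAD1 to SMAD5 were all in both lists, with folds of 5.72 to 26.4 in the polyA list and 4.08 to 12.1 in the rRNA-depleted list. Of the inhibitory SMADs, SMAD6 was in both (49.9 and 5.16) and SMAD7 in the polyA list only (46.6). The target genes ID1, ID2 and ID3 and the repressors SKI and SKIL were in both.

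In the Wnt and Hippo pathways, 17 of 26 genes were in both, 3 in the polyA list only and 1 in the rRNA-depleted list only. The polyA-only genes were the receptors FZD4 (4 peaks, highest fold 8.45) and FZD7 (2 peaks, 38.6) and the transcription factor TEAD1 (2 peaks, 2.64). TCF7L2, the transcription factor at the end of the Wnt pathway, was the rRNA-depleted one, with 3 peaks and a highest fold of 4.32. CTNNB1, APC, AXIN1 and both LRP co-receptors were in both. The kinases LATS1 and LATS2 had folds of 10.2 and 36.8 in the polyA list and 8.24 and 12.8 in the rRNA-depleted list.

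Of 23 matched cell cycle and replication genes, 4 were in both lists, 6 in the polyA list only and 0 in the rRNA-depleted list only. The other 13 (56.5%) were in neither, near the 50.0% of all genes with a symbol. The helicase subunits MCM4, MCM6 and MCM7 were polyA only, with folds of 8.68, 10.4 and 11.3, and MCM2 and MCM3 were in both. Genes with zinc finger symbols (ZBTB, ZFP, ZKSCAN, ZNF and ZSCAN) were in both lists in 118 of 337 and in the polyA list only in 98. In the rRNA-depleted list only were 2, ZNF384 and ZBTB8OS. The 337 genes held 569 polyA and 250 rRNA-depleted peaks. The set goes by symbol, which does not show that each gene, ZBTB8OS among them, encodes a zinc finger. It is also not limited to transcription factors, since it includes ZFP36, described above.

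Of the ribosomal protein genes, which give short and abundant transcripts, fewer had a peak in the polyA list than in the rRNA-depleted list. Of 57 matched genes, 11 (19.3%) were in the rRNA-depleted list only, 7 in the polyA list only, 6 in both and 33 in neither. Of all genes with a symbol, 2.11% were in the rRNA-depleted list only. In all, 17 of the 57 had a rRNA-depleted peak, near the 30.5% of all genes with a symbol. A polyA peak was present in 13 of the 57, below the 47.8% of all genes. The set thus departed from all genes in its low number of genes with a polyA peak. Folds in the 11 genes were low, between 1.32 for RPL14 and 2.11 for RPL28, and RPL6 had 2 peaks with a highest fold of 1.48. The polyA-only genes had folds from 2.74 (RPL38) to 19.7 (RPL7). Ribosomal protein genes have many near-identical processed copies in mammalian genomes, and how reads from copies were assigned is not given in the sources used here.

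Histone genes whose transcripts lack a polyA tail did not fill the rRNA-depleted list. Replication-dependent histone genes, whose messages end in a stem-loop, had a peak in the rRNA-depleted list in 2 of 15 genes with such symbols, where 30.5% of all genes with a symbol had one: H1-3, also in the polyA list (6.17 and 3.59), and H2AC20 (2.06). Among 50 histone genes named by their RefSeq product, 1 was in both, 2 in the rRNA-depleted list only and 1 in the polyA list only. None of the 15 non-coding RNAs looked for by symbol could be matched, so untailed RNAs among them could not be examined. By RefSeq class at the midpoint, protein-coding genes held 90.5% of polyA peaks and 92.9% of rRNA-depleted peaks, and lncRNA genes held 69 and 42 peaks. Of the 42, 71.4% were shared. The strongest peaks in RefSeq genes that are not protein coding carried, in the authors' gene identifiers, the symbols TSSC4 (46.6) and TXNL4B (42.2) in the polyA list and POMK (14.7) and B4GALT4 (14.2) in the rRNA-depleted list.

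Introns held few peaks of either list, 1.85% (1.65% to 2.07%) of polyA and 0.890% (0.722% to 1.10%) of rRNA-depleted peaks. These are sites that RefSeq places in an intron. The authors' gene models, which were not compared, need not place them there. The strongest were in ZNF326 (276) and MAMLD1 (73.6) in the polyA list and in WBP4 (15.1) and ARMC8 (12.5) in the rRNA-depleted list. Outside RefSeq genes lay 7.32% and 4.93%.

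The rRNA-depleted list held more peaks on mitochondrial RNA than the polyA list, with higher folds. The mitochondrial genome encodes subunits of the respiratory chain and of ATP synthase, with 2 rRNAs and its tRNAs, and its transcripts are cut from long precursors. The rRNA-depleted list had 21 peaks in 17 mitochondrial genes, over 62.8% of the length of that genome, with folds of 1.86 to 16.3. The polyA list had 9 peaks in 6 genes, over 12.4%, with folds of 1.25 to 2.64. All 13 protein-coding genes had a rRNA-depleted peak. ND1, ND4L, COX1, COX2, COX3, CYTB and ATP8 (7 of 13, or 53.8%) were in that list only, against 2.11% of all genes with a symbol. This goes by gene identifier: the ATP8 peak overlapped a polyA peak that was assigned to the overlapping gene ATP6.

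In 5 of the 6 genes with a peak in both, the rRNA-depleted peak ran over nearly the whole gene (94.3% to 100%) and the polyA peak or peaks over at most 50.3% each. ND4 had a rRNA-depleted peak of 1378 bases with a fold of 5.92 and polyA peaks of 270 and 91 bases with 1.84 and 1.61. ND5 had 1821 bases with 5.29, against 478 and 120 bases with 2.05 and 2.64. ND6, the protein gene on the minus strand, was the exception: both lists had the same 528 bases, with 2.35 and 5.68. In all, 8 rRNA-depleted peaks and 1 polyA peak covered a whole gene.

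The strongest mitochondrial peak, with a fold of 16.3, lay in the large rRNA over 327 bases, and a peak of the small rRNA had 7.20. Genes for tRNA-Gln (3.15) and tRNA-Met (4.53) were each covered whole. Peaks that cover a whole gene do not place a modified base, and no GGAC lies in the ND4L peak shown above.

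**Figure D4:**
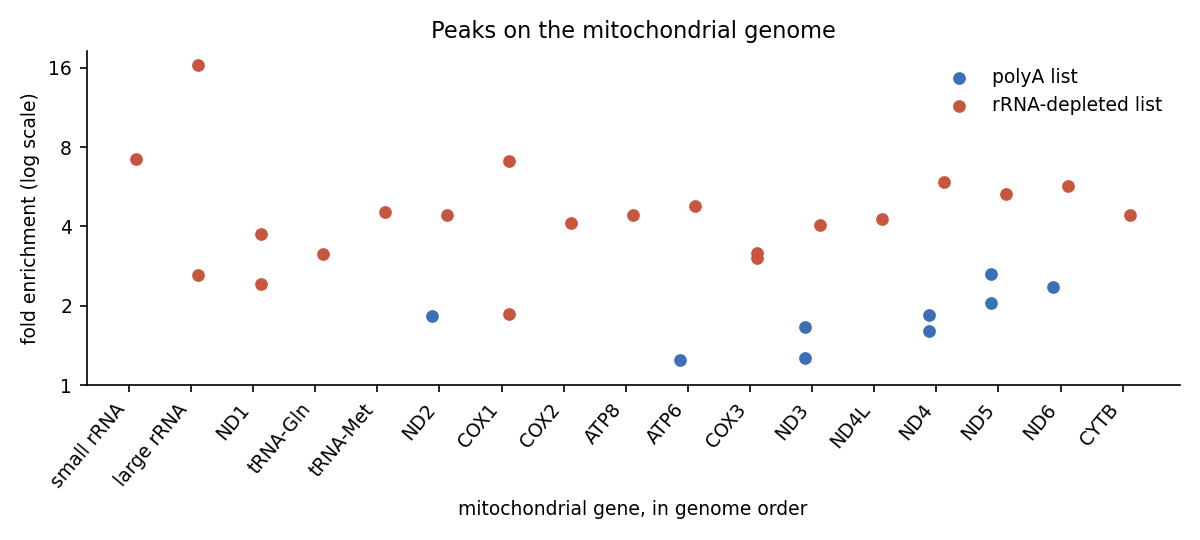
The authors' fold enrichment (vertical axis, log scale) of every peak on the mitochondrial genome, by gene in genome order (horizontal axis); each point is 1 peak. Rust points (rRNA-depleted list) stand above blue points (polyA list) in all 6 genes with both, and 11 genes have rust points only.

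The lists also differed in strand. RefSeq coding genes lie on the plus strand of their chromosome in 50.7%. PolyA peaks were on the plus strand in 51.7% (50.9% to 52.4%) and rRNA-depleted peaks in 59.0% (58.0% to 60.0%). The plus share was higher in the rRNA-depleted list on 19 of 19 chromosomes, by 1.72 to 10.6 percentage points. Counted by gene it was 51.1% and 56.4%. The 6 muscle lists, also from rRNA-depleted RNA, had 53.5% to 57.7% of peaks on the plus strand, between the 2 PK15 lists. Of polyA genes on the plus strand, 63.8% (62.4% to 65.3%) were also in the rRNA-depleted list, and of those on the minus strand 52.6% (51.1% to 54.1%). The gap was present in each of 4 equal groups of the polyA list by fold, with 39.2% and 26.5% of peaks shared in the lowest and 52.7% and 46.0% in the highest. How strand was handled in library making and peak calling is not given in the sources used here, and its part in the result was not tested.

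**Figure D5:**
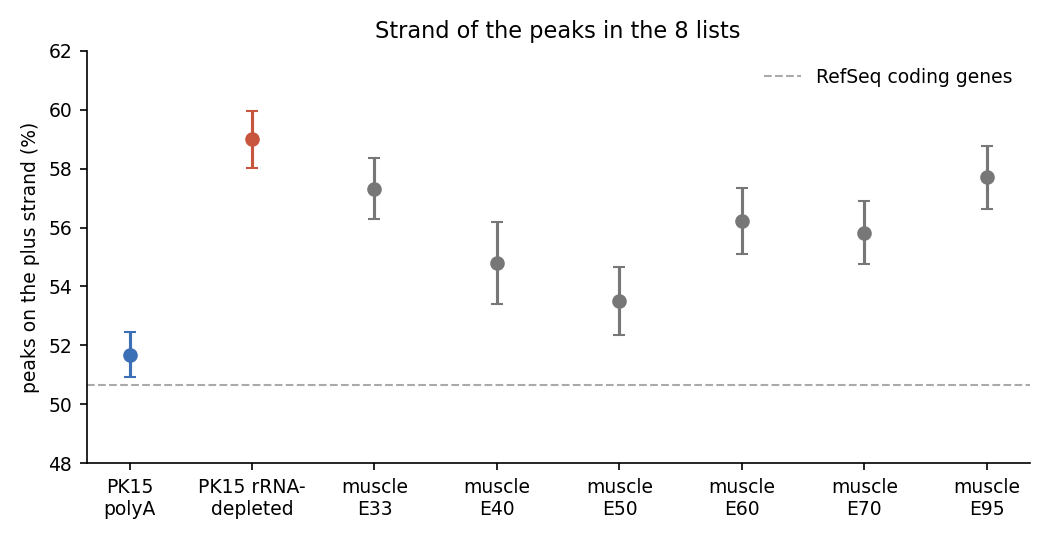
Percentage of peaks on the plus strand (vertical axis, which does not start at 0) in the 2 PK15 lists and the 6 fetal muscle lists (horizontal axis), with Wilson 95% intervals; the dashed line is the plus-strand share of RefSeq coding genes, 50.7%. The PK15 polyA list is at 51.7% and the PK15 rRNA-depleted list at 59.0%.

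The labelled cell type was checked against peaks in marker genes, since peaks show only transcripts that are both present and methylated. Of 24 matched kidney epithelium markers, 12 were in both lists and 1 (EPCAM) in the polyA list only, so 13 had a polyA peak, a share near the 47.8% of all genes with a symbol. Among them were PAX2 (34.3 and 7.75), LRP2 (12.3 and 12), CDH1 (5.74 and 3.53) and CDH6 (16.6 and 5.19). Skeletal muscle markers had a peak in 1 of 10 genes, fibroblast markers in 2 of 8, endothelial markers in 0 of 4 and blood markers in 0 of 5. The 11 kidney markers in neither list were UMOD, AQP1, AQP2 and SLC12A1, which mark mature nephron segments, and CDH16, KRT18, CDH2, CLDN7, LHX1, WT1 and CUBN. The marker peaks alone thus do not settle the cell type.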

How the data were processed

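MeRIP-seq of PK15 cells was compared through 1 deposited peak list per preparation. Per the submitters' processing notes, Trimmomatic, HISAT2 and Sscrofa11.1 were used. The peak caller, its threshold and any pooling of replicates are not given in the sources used here. Per the file headers, the authors' lists give a p-value, a log10 p (taken as a score with no fixed range) and a fold enrichment (a ratio) for each peak. 1 duplicate polyA entry was dropped. Peaks were compared with bedtools 2.31.1 over their exon blocks (at least 1 base, same strand) in Python 3.11.15. They were placed by midpoint on RefSeq Sscrofa11.1: 80.8% (polyA) and 90.3% (rRNA-depleted) of block junctions fell at RefSeq introns, and 0 peaks passed a chromosome end. The 260 and 156 peaks on unplaced scaffolds were not placed. Symbols came from a table of Ensembl identifiers.

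Named genes are members of lists written from general knowledge, plus, by size, the 5 (longest peaks: 3) highest by fold, intron fold, non-coding fold, peak number or difference in peak number, among those with a symbol; a part of them is printed, and some are not reported here. The members and lists were chosen with earlier results of these data known. Overlap, placement and motif search were tested on simulated data. Alternatives were stricter folds, equal list lengths, other overlap rules, distances and motifs.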

Additional observations from a re-analysis of the deposited data

How the results depend on the processing

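Of 50 alternative values, 21 stayed within 1.5 times the count or inside the interval of the value given above and 29 moved. The log2 ratio of folds, the only signed value, stayed above 0. The order of the lists turned in some: for the share near the stop codon, 22.1% of polyA against 21.6% of rRNA-depleted peaks became 21.5% against 24.0% with the fold limit, and for the motif 86.8% against 88.4% with DRACH became 50.7% against 49.5% with GGAC. With only peaks at or above each list's own median fold, 2792 genes were in both lists, 36.8% of polyA and 70.4% of rRNA-depleted peaks were shared, the median lengths were 388 and 270 bases, 0.680% of rRNA-depleted peaks lay in introns and 90.5% held DRACH. With equal list lengths, 1664 genes were in the polyA list only and 758 in the rRNA-depleted list only, 63.2% and 72.2% of peaks were shared, and polyA peaks had a median length of 387 bases, 1.26% in introns, 25.2% near the stop codon and 88.3% with DRACH. Asking for 50% of the shorter peak gave 40.8% and 77.8% shared. Measured from start to end on the genome, the median lengths were 329 and 270. Ignoring strand, 2.19% of polyA peaks lay in introns. Stop codon shares were 12.8% and 12.4% within 100 bases and 32.6% and 32.7% within 400. DRACH was in 95.3% and 95.7% of whole peaks. The cause of these shifts was not tested. No paired analysis was possible because each preparation has 1 list with no values per sample. For the same reason no sample could be left out.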
